A study of Mus musculus with 95 samples.

Results

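Lungs of mice lacking CD40 ligand (CD40L-KO) that had been housed for 75 days with a cage mate heavily infected with Pneumocystis murina were compared with lungs of CD40L-KO mice housed in that way for 39 days. The comparison rests on the 5 arrays whose titles give these days, 3 of day 75 and 2 of day 39, out of 95 arrays in the series. All of these mice carry the CD40L deletion, all were exposed, and the labels call all of them female and 8 weeks old. Each array holds total RNA of 1 lung homogenate, so that all cell types of the lung were measured together, and fewer cells of a type and less RNA per cell cannot be told apart. Further groups used below were exposed CD40L-KO mice of days 32 (3 arrays) and 35 (4 arrays), unexposed CD40L-KO mice of days 14 (5 arrays) and 32 (3 arrays), exposed C57BL/6 mice, which have CD40 ligand, of days 32 and 75 (3 arrays each) and unexposed C57BL/6 mice of day 32 (2 arrays). No unexposed mice of days 39 or 75 were analysed here, and the design text names no experiment for the mice of these days. The effects of time of exposure, age and array run therefore cannot be told apart.

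Pneumocystis is a fungus that lives attached to the alveolar epithelium and is cleared in immunocompetent mice by CD4+ T cells, antibody and alveolar macrophages. CD40 ligand is carried by activated helper T cells. It engages CD40 on B cells, dendritic cells and macrophages, licenses antibody class switching and activates the phagocytes, and without it the fungus is not cleared. Alveolar macrophages take up the organisms through receptors for their surface sugars and kill them with lysosomal proteases and with the reactive oxygen made by the phagocyte NADPH oxidase.

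Levels are given as log2(intensity + 8), where the intensity is the deposited value of a probe set, the group of oligonucleotides that reports 1 transcript. A gene absent from the sample would read 3.00 on this scale, differences are day 75 minus day 39, and folds on this scale understate the change of dim genes. Array medians lay between 38.6 and 41.2 intensity units on the 5 arrays. Arrays correlated at 0.978 to 0.986 within day 75 and 0.977 between the pair of day 39, against 0.966 to 0.969 between the days. The transcripts went against the labelled sex. Xist, made from the inactive X chromosome of females, read 3.67 to 4.44 on the 5 arrays, against 6.85 to 7.35 in unexposed CD40L-KO mice of day 32. Eif2s3y, a Y-linked gene, read 5.91 to 6.30 on the 5 arrays. In the unexposed mice of day 32, whose Xist was high, Eif2s3y read 3.42 to 4.25, so an absent gene need not read 3.00. Cd40lg read 3.12 to 3.23 at day 75 and 3.09 to 3.12 at day 39, next to the floor of the scale, but it read 3.14 to 3.38 in exposed C57BL/6 lungs as well, so it does not check the genotype label.

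The control probe sets at the 3' and 5' ends of Gapdh, a housekeeping transcript, differed between the days. Their ratio, which rises as RNA is degraded or incompletely copied, was 1.19, 1.21 and 1.10 on the day 75 arrays, against 1.32 and 1.42 on the day 39 arrays. The groups did not overlap, and the log2 ratio differed by -0.23. An exact two-sided permutation test gave p = 0.1, the smallest value that 3 arrays against 2 allow. The beta-actin ratio was 1.21, 1.40 and 1.37 at day 75 and 1.52 and 1.53 at day 39 (log2 difference -0.21, exact p = 0.1). Over the 95 arrays the Gapdh ratio spans 0.883 to 4.42 and the beta-actin ratio 0.947 to 6.6, so the 5 arrays lie near the low ends. The day 39 beta-actin ratios were nevertheless above those of all other groups used here, which reached at most 1.42. The highest Gapdh ratio in those other groups was 1.37, between the 2 day 39 values. Each ratio separates the days completely and cannot be told apart from them. The brightest probe sets also read lower on the later arrays: the highest intensity was 5421 to 5742 at day 75, against 8695 to 9241 at day 39, and the probe set for the B2 repeat read 4028 to 4424 at day 75, against 6149 to 6252 at day 39.

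Across all genes, 273 of 8252 passed an adjusted p of 0.05 (3.31%), of which 189 were higher (2.29%) and 84 lower (1.02%) at day 75. The phagocyte receptor genes Marco and Mrc1, the oxidase subunit genes Ncf1 and Cybb, the acute phase gene Saa3, the interferon-induced chemokine Cxcl9 and the cell division genes Mki67, Cdk1 and Kif20a were among the rises. The surfactant gene Sftpc, the endothelial receptor genes Eng and Acvrl1 and 5 ribosomal protein genes were among the falls. The called differences had a median size of 0.75 and the largest was 2.36. Groups did not overlap for any of the 273 genes, which 42.3% of all genes share, with day 75 entirely above in 21.3% and entirely below in 21.0%. The median difference over all genes was -0.001.

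The count rested on an estimate of spread pooled over 7 groups of days 32, 39 and 75 (19 arrays). From the 5 arrays alone 0 genes passed in limma, with 1889 at an unadjusted p under 0.05. With the log2 Gapdh ratio in the model 1 gene passed, Hnrnpl, and all 273 genes kept their sign, with a median size of 0.73 against 0.75. With this ratio in the model the difference of some called genes named below shrank by over 1.5 times. The rises among them were Saa3 (to 1.41), Csf2rb (1.00), Snrpd3 (0.71), Kif20a (0.76), Mki67 (0.74), Col5a2 (0.44) and Bhlhe40 (0.37). The falls were Tcn2 (-0.60), Eng (-0.57), Ephx1 (-0.51) and Acvrl1 (-0.48). Of genes below that had not passed, Cxcl1 shrank from 1.50 to 0.49, Ccl8 from 1.74 to 0.76 and Ccl9 from 1.00 to 0.58. Clca1 shrank from 1.47 to 0.45, while Lcn2 (1.25) and Mmp12 (1.54) hardly moved. Without day 75 replicate 1, 2 or 3 the count was 165, 42 or 54, and without day 39 replicate 1 or 2 it was 17 or 23. Marco and Hnrnpl were the 2 genes that passed in all of these 5 fits. Every other call named below was lost in at least 1 of them.

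**Figure D1:**
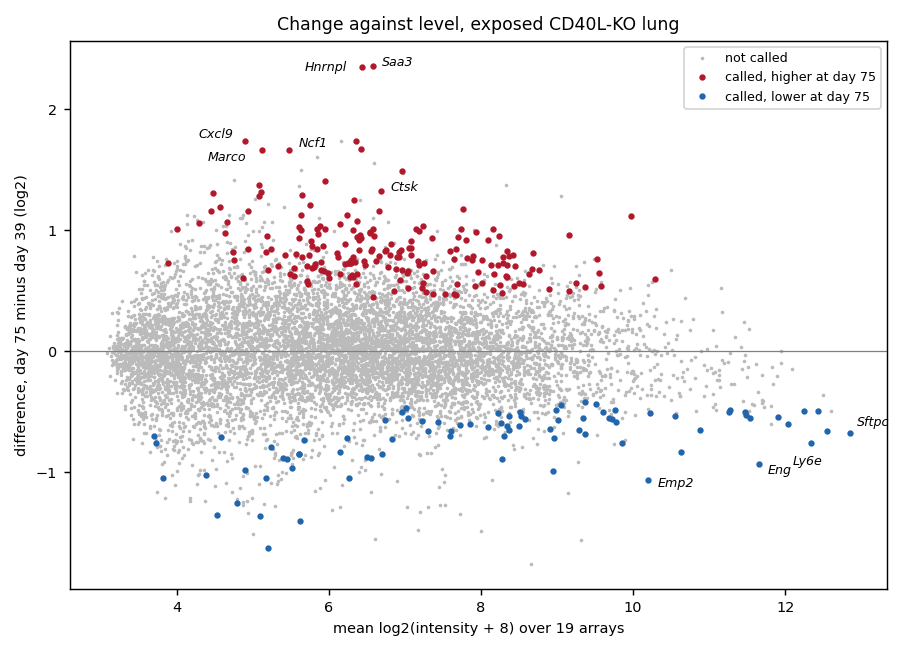
Difference between day 75 and day 39 (log2, vertical axis) against the mean log2(intensity + 8) over the 19 arrays of the fit (horizontal axis), 1 point per gene. Red points are the 189 called genes higher at day 75, blue points the 84 called lower and grey points the genes that were not called; the called genes above a level of 11 are lower at day 75.

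Of 26 measured macrophage and monocyte genes 4 rose (Marco, Mrc1, Csf2rb and Cybb) and 0 fell, where 2.29% and 1.02% of all genes did. The 3 day 75 arrays stood above both day 39 arrays for 15 of the 26 and below them for 0, against 21.3% and 21.0% of all genes. The median difference of the list was 0.39. Marco, a scavenger receptor of alveolar macrophages that binds microbial surfaces, read 6.19, 6.57 and 6.44 at day 75, against 4.95 and 4.52 at day 39. The lowest day 75 lung was thus more than 1 log2 unit above the highest day 39 lung. The difference was 1.67 (SE 0.22, adjusted p = 0.00526), 3.17-fold on this scale. Mrc1, the macrophage mannose receptor, read 6.86, 6.97 and 7.10 at day 75 and 5.94 and 6.01 at day 39, a difference of 1.00 (adjusted p = 0.00989). The 3 later lungs lay close together and well clear of the pair. Csf2rb, the shared signalling chain of the receptors for GM-CSF, interleukin-3 and interleukin-5, read 6.87, 6.60 and 6.66 at day 75, against 5.18 and 4.77 at day 39 (difference 1.74, adjusted p = 0.0144). Its near-identical neighbour Csf2rb2, named after its value was seen, differed by 0.74 (adjusted p = 0.0372), and probes for these genes may not separate them. GM-CSF is the cytokine that alveolar macrophages need to mature.

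The other 22 members of this list did not pass. Adgre1, which encodes the macrophage antigen F4/80, differed by 0.58, Ccr2, the chemokine receptor of recruited monocytes, by 0.65, Cd68 by 0.22 and Cx3cr1 by -0.16. The summed intensity of the 26 genes was 8392, 8997 and 9369 at day 75 and 7565 and 6619 at day 39, so that every later lung was above both earlier ones. Such a sum weighs the brightest members most. Among these is Lyz2, with a median of 12.02 on the 15 other CD40L-KO arrays, which was not called and is also on the alveolar type II list.

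Among 6 measured subunits of the phagocyte NADPH oxidase 2 rose and 0 fell, against 2.29% and 1.02% of all genes. Ncf1, which encodes the cytosolic organiser p47phox, read 5.82, 5.69 and 5.90 at day 75, against 4.21 and 4.07 at day 39 (difference 1.66, SE 0.24, adjusted p = 0.00605). Cybb, the catalytic membrane subunit gp91phox, read 6.10, 6.02 and 6.11 at day 75 and 5.03 and 4.71 at day 39 (difference 1.21, adjusted p = 0.0141). In both genes the 3 later lungs agreed within 0.21 and the groups were far apart. The partner of Cybb in the membrane, Cyba, differed by 0.09, the cytosolic subunit Ncf4 by 0.24 and the GTPase Rac2 by -0.12, and these did not pass.

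**Figure D2:**
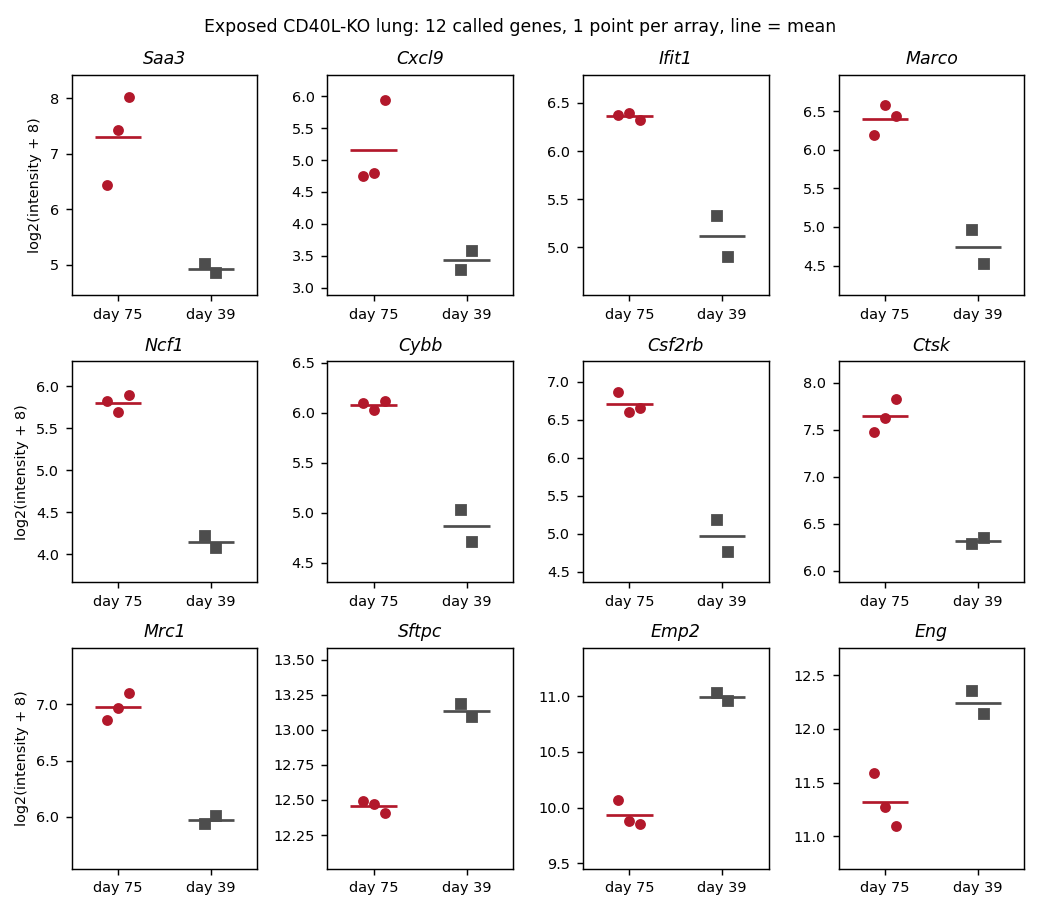
Log2(intensity + 8) of 12 called genes on each array, with day 75 (red circles, 3 arrays) left of day 39 (grey squares, 2 arrays) and a line at each group's mean. The panels have different vertical ranges; in each of them the groups do not overlap, and the day 75 values of Saa3 and Cxcl9 spread most.

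Inflammatory and interferon-induced genes rose in part. Saa3, an acute phase apolipoprotein made by macrophages and epithelium, read 6.43, 7.42 and 8.02 at day 75, against 5.01 and 4.86 at day 39. The 3 later lungs differed by over 1.5 log2 units among themselves, yet all exceeded the earlier pair. The difference was 2.36 (SE 0.54, adjusted p = 0.0296), 5.14-fold on this scale, the largest called. Cxcl9, a chemokine induced by interferon-gamma that draws CXCR3-bearing T cells, read 4.75, 4.80 and 5.94 at day 75, with replicate 3 standing apart, and 3.28 and 3.58 at day 39, near the floor (difference 1.74, adjusted p = 0.0239). Ifit1, an antiviral protein induced by type I interferon, read 6.38, 6.40 and 6.32 at day 75 and 5.32 and 4.90 at day 39 (difference 1.25, adjusted p = 0.0456, 0.0609 after quantile normalization).

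The lists to which these genes belong moved little as wholes. Of 25 measured Th1 and interferon-gamma response genes 1 rose (Cxcl9) and 0 fell, against 2.29% and 1.02% of all genes. Day 75 was entirely above for 9 and entirely below for 1, against 21.3% and 21.0% of all genes, and the median was 0.23. Ifng, the cytokine itself, read 3.17 to 3.98 at day 75 and 3.06 to 3.73 at day 39. The guanylate-binding gene Gbp3 differed by 0.52, the immunity-related GTPase gene Irgm1 by 0.65 and the chemokine gene Cxcl10 by 0.48, and these did not pass. Of 15 type I interferon response genes 1 rose and 0 fell (median 0.19), and of 17 acute phase genes 1 rose and 0 fell (median 0.13).

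Several chemokine and neutrophil genes had large differences without passing. Lcn2, a siderophore-binding protein of neutrophils and epithelium, read 9.21, 9.81 and 10.00 at day 75, against 8.69 and 8.09 at day 39 (difference 1.28, adjusted p = 0.0502), but its other probe set differed by -0.28. Cxcl1, a neutrophil chemoattractant, differed by 1.50 (adjusted p = 0.0614), Ccl8 by 1.74 (0.0863) and Ccl9 by 1.00 (0.133), both of them chemokines of monocytes and other leukocytes. Mmp12, the macrophage elastase, differed by 1.56 (adjusted p = 0.134). Of 17 measured neutrophil genes 0 were called in limma (2 at an unadjusted p under 0.05) and the median was -0.04, and of 16 monocyte and lymphoid chemokine genes 0 were called (4 unadjusted) with a median of 0.20.

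The promoters of these 3 genes are shown because they belong to different inducible programmes and rose in the same lungs. Each stretch is 300 bases of RefSeq on GRCm38.p6, mostly before the annotated start and ending shortly after it, written 5′ to 3′ on the gene's strand, with capitals where a motif matched. Saa3 is at chr7:46715627-46715926 on the minus strand, Cxcl9 at chr5:92328030-92328329 on the minus strand and Ifit1 at chr19:34640639-34640938 on the plus strand.
Saa3: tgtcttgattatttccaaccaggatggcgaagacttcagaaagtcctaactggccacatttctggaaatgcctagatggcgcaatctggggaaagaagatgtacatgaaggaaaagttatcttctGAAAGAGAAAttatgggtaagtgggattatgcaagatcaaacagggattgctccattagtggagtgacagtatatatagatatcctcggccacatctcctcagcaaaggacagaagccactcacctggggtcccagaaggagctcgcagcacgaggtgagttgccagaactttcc
Cxcl9: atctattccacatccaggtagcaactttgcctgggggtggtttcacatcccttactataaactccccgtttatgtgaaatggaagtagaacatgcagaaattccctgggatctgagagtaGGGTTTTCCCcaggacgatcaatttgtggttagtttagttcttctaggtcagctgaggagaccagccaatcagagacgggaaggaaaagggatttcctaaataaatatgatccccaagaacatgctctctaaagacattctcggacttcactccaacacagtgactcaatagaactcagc
Ifit1: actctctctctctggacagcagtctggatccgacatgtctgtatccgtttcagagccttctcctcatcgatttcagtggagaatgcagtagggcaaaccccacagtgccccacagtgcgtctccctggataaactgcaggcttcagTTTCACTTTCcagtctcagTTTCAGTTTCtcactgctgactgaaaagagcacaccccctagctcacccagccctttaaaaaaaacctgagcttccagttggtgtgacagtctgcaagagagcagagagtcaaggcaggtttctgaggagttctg
Motifs searched on both strands were the interferon-stimulated response element as GAAA and GAAA with 2 free bases between, which 3.44% of 32851 promoters of this length hold, the gamma-activated site as TTCNNNGAA (8.3%) and an NF-kB-type site as GGGA and CC with 4 free bases between (20.7%). Ifit1 held 2 matches to the first, which do not overlap, at bases 147 to 156 and 166 to 175 of the stretch. Saa3 held 1 match to the first at bases 126 to 135, and Cxcl9 held 1 match to the third at bases 121 to 130. The letters of the second are in none of these 3 windows. A match is a description of the letters and was not tested as a binding site.

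Of 41 measured cell cycle genes 3 rose (Mki67, Cdk1 and Kif20a), 0 fell and 38 did not pass, where 2.29% of all genes rose and 1.02% fell. Day 75 was entirely above day 39 for 20 and entirely below for 0, against 21.3% and 21.0% of all genes. The median of the list was 0.37. Mki67, the proliferation antigen Ki-67, read 4.86, 5.17 and 5.60 at day 75, against 3.96 and 3.82 at day 39 (difference 1.32, adjusted p = 0.0185), while its other probe set differed by 0.09. Cdk1, the mitotic kinase, read 5.44, 5.67 and 5.74 at day 75 and 4.55 and 4.63 at day 39 (difference 1.03, adjusted p = 0.0399). Kif20a, a kinesin of the dividing cell's midzone, differed by 1.28 (adjusted p = 0.038). The 3 genes were near the floor at day 39 and remained dim at day 75. Among those that did not pass, Tk1, thymidine kinase, differed by 1.61 (adjusted p = 0.0762), Top2a by 1.03 (0.0719), Pcna by 0.59 (0.0828) and Ccna2 by -0.16.

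Of 24 measured cathepsin and lysosome genes 3 rose (Ctsk, Ctsc and Cd63), 1 fell (Lamp1) and 20 did not pass (median 0.17). Of all genes 2.29% rose and 1.02% fell. Ctsk, cathepsin K, a collagen-degrading protease of macrophages and osteoclasts, read 7.47, 7.63 and 7.83 at day 75, against 6.28 and 6.35 at day 39, with no overlap and little spread in either group (difference 1.32, SE 0.23, adjusted p = 0.00961). Ctsc, the protease that activates granule serine proteases, differed by 0.95 (adjusted p = 0.0232), with 0.34 to 1.24 by its other probe sets. Cd63, a tetraspanin of late endosomes, differed by 0.56 (adjusted p = 0.0377). Lamp1, the lysosomal membrane glycoprotein, fell by 0.50 (adjusted p = 0.0348), but after quantile normalization the difference was -0.23 and did not pass.

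Other large rises were spread over several functions. Hnrnpl, an RNA-binding regulator of splicing, had the smallest p of all genes: it read 7.34, 7.63 and 7.56 at day 75, against 5.31 and 5.01 at day 39 (difference 2.35, SE 0.20, adjusted p = 3.35e-05). Cyp1a1, the cytochrome P450 induced through the aryl hydrocarbon receptor, read 7.73, 7.92 and 7.33 at day 75 and 6.13 and 6.20 at day 39 (difference 1.49, adjusted p = 0.0141), with 0.31 by its other probe set. Wfdc21, a secreted protein of the whey acidic protein family, differed by 1.08 (adjusted p = 0.0153) and Myh9, non-muscle myosin heavy chain, by 1.12 (adjusted p = 0.0141). Gclc, the rate-limiting enzyme of glutathione synthesis, differed by 0.99 (adjusted p = 0.0278), and Sgk1, a kinase induced by glucocorticoids, by 0.81 (adjusted p = 0.00961).

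The remaining genes among the 15 largest rises above the median level were Snrpd3, a core splicing protein (1.13), D17H6S56E-5 (1.16), Tlcd4 (1.06), Atp6v1c1, a subunit of the proton pump that acidifies lysosomes (1.03), Usp33, a deubiquitinase (1.02), Acsl4, which activates arachidonic acid (1.17), and Mrpl45, of the mitochondrial ribosome (1.67). The other probe sets of Acsl4 and Mrpl45 differed by -0.13 and -0.12, so their rises rest on 1 probe set each. Mrpl45 read 4.33 and 5.99 at day 39, against 6.65 to 7.01 at day 75, so the size of its rise depends on the lower day 39 array. Single list members that rose were Pdia6, a chaperone of disulphide bonding in the endoplasmic reticulum (0.65), Col5a2, a fibrillar collagen chain (0.73), Cd55, which shields cells from complement (0.61), Hmgcs1, of cholesterol synthesis (0.73), and Bhlhe40, a transcription factor of the clock and of lymphocytes and macrophages (0.85). Cd55, Hmgcs1 and Bhlhe40 no longer passed after quantile normalization (adjusted p = 0.0585, 0.065 and 0.0655). Pdia6 was the 1 called of 23 measured heat shock and unfolded protein genes, whose median was 0.32. Day 75 was entirely above for 8 of the 23 and entirely below for 1, against 21.3% and 21.0% of all genes.

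Epithelial and endothelial genes were among the falls. Emp2, a membrane protein of alveolar type I cells, read 10.07, 9.88 and 9.85 at day 75, against 11.03 and 10.96 at day 39 (difference -1.06, SE 0.17, adjusted p = 0.00846), 0.478 times on this scale. Of 8 measured type I genes this was the 1 that fell and 0 rose. Ager, the type I cell receptor for glycation products, differed by -0.60 (adjusted p = 0.0659) and Pdpn, podoplanin of the same cells, by 0.75. Eng, endoglin, an endothelial co-receptor for TGF-beta family ligands, read 11.59, 11.27 and 11.10 at day 75 and 12.35 and 12.14 at day 39 (difference -0.93, adjusted p = 0.0214). Acvrl1, the endothelial receptor ALK1 that signals with it, differed by -0.76 (adjusted p = 0.0386). Eng was the 1 gene called of 33 measured endothelial genes, whose median was 0.10. After quantile normalization neither Eng (-0.61, adjusted p = 0.102) nor Acvrl1 (-0.71, adjusted p = 0.0628) passed.

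The falls of very bright genes depended on the scale. Sftpc, surfactant protein C of alveolar type II cells, read 12.49, 12.47 and 12.41 at day 75, against 13.18 and 13.09 at day 39 (difference -0.68, adjusted p = 0.0117). It tops the intensities of these arrays, and after quantile normalization, which gives every array the same brightest values, the difference was 0.00. Of 12 measured type II genes it was the 1 called, and the median was 0.01. Ly6e, a membrane protein induced by interferons, differed by -0.76 (adjusted p = 0.00961), by -0.36 after quantile normalization (adjusted p = 0.0722) and by -0.08 in its other probe set. Over the 200 brightest genes the median difference was -0.16 as deposited and 0.02 after quantile normalization, and 2 of them rose and 19 fell as deposited.

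Ribosomal protein genes showed the same dependence. Of 28 measured 5 fell and 0 rose, against 1.02% and 2.29% of all genes. Day 75 was entirely below for 15 and entirely above for 4, against 21.0% and 21.3% of all genes. The median of the list was -0.20 as deposited and -0.10 after quantile normalization. Rps28 read 11.75, 11.86 and 11.84 at day 75, against 12.45 and 12.40 at day 39 (difference -0.60, adjusted p = 0.0105), and its other probe sets differed by -0.88 and -0.69. Rpl41 differed by -0.66, Rps18 by -0.55, Rpl19 by -0.50 and Rpsa, named as the last of the 5, by -0.42. None of the 5 passed after quantile normalization, where Rps28 differed by -0.20 (adjusted p = 0.313), and the other probe set of Rpl19 differed by 0.40. Genes of the mitochondrial respiratory chain, of which 48 were measured, had 0 calls (6 unadjusted) and a median of -0.18. For them day 75 was entirely below for 25 and entirely above for 2, against 21.0% and 21.3% of all genes.

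The other falls named here passed after quantile normalization too, with the exception of Tubb4b. Tcn2, transcobalamin II, the plasma carrier of vitamin B12, read 8.62, 8.77 and 8.34 at day 75, against 9.61 and 9.52 at day 39 (difference -0.99, adjusted p = 0.0138, and 0.0179 after quantile normalization). Ephx1, microsomal epoxide hydrolase, differed by -0.89 (adjusted p = 0.0444). Of 35 measured xenobiotic metabolism genes 2 rose (Cyp1a1 and Gclc) and 1 fell (Ephx1), against 2.29% and 1.02% of all genes. Day 75 was entirely below for 19 and entirely above for 3 (median -0.20), against 21.0% and 21.3% of all genes. Tubb4b, a tubulin of cilia, was the 1 gene called of 8 measured ciliated cell genes (-1.37, adjusted p = 0.0407, and 0.0501 after quantile normalization). Ptgdr2, the prostaglandin D2 receptor of type 2 lymphocytes and eosinophils, fell by 0.88 (adjusted p = 0.0141). Snrpb, a core splicing protein, differed by -0.83 in the brightest probe set and by -0.07 in the other.

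The last of the 15 largest falls above the median level were the hair keratin Krt36 (-1.05), the hair keratin-associated Krtap13 (-0.87), the immunoglobulin segment Ighv5-12 (-0.85), the kinase Dyrk1b (-0.83), the chromatin reader Ing1 (-0.73), the membrane fusion factor Nsf (-0.72) and the ubiquitin ligase Rnf167 (-0.72). Hair keratins are not known as lung transcripts, and their probe sets read 5.52 to 7.05 on the 5 arrays.

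**Figure D3:**
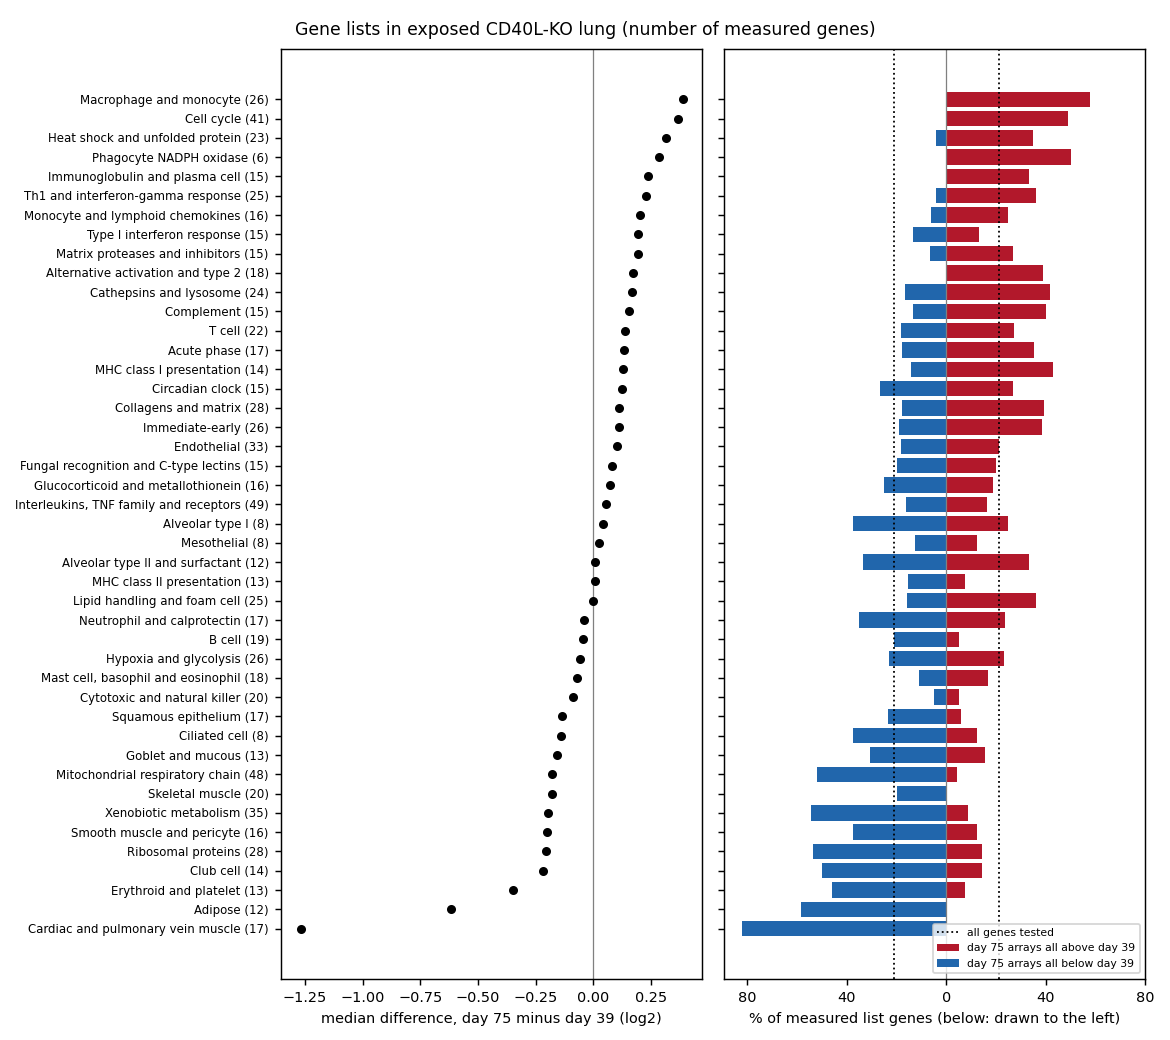
Median difference of each gene list, day 75 minus day 39 (left panel, log2), and the percentage of its measured genes for which the 3 day 75 arrays were all above (right panel, red) or all below (right panel, blue, drawn to the left) both day 39 arrays. Numbers in brackets are measured genes and dotted lines the shares of all genes, 21.3% above and 21.0% below. Macrophage, cell cycle, heat shock and oxidase lists stand at the top and cardiac and adipose lists at the bottom.

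Markers of tissues attached to the lung were lower at day 75 in most cases without passing the test. Of 17 measured genes of cardiac and pulmonary vein muscle 0 were called in limma (1 unadjusted), with a median of -1.27. Day 75 was entirely below for 14 of these 17 genes and entirely above for 0, against 21.0% and 21.3% of all genes. Their summed intensity was 1910, 4094 and 3335 at day 75, against 6502 and 7156 at day 39. Myl7, the atrial light chain, read 8.07, 9.59 and 9.27 at day 75 and 10.46 and 10.62 at day 39 (difference -1.56, adjusted p = 0.346), and the first day 75 lung stood apart from the other lungs of its group. Of 12 adipose genes 0 were called (0 unadjusted), with a median of -0.62 and summed intensities of 345 to 771 at day 75 and 950 to 1067 at day 39. Their part in the other differences was not tested. The averaged squamous epithelium genes read 5.02 to 5.07 at day 75 and 5.19 to 5.27 at day 39, near the lower end of the 4.86 to 8.31 seen over the 95 arrays, and skeletal muscle genes 4.67 to 4.86 and 5.00 to 5.09 on a range of 4.28 to 7.79. With both averages in the model 186 genes passed.

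Lists of lymphocyte genes held no call between the days. Of 22 T cell genes 0 were called in limma, with 2 at an unadjusted p under 0.05 and a median of 0.14. Of 19 B cell genes 0 were called (2 unadjusted, median -0.05), of 15 immunoglobulin and plasma cell genes 0 (3 unadjusted, median 0.24) and of 20 cytotoxic and natural killer genes 0 (0 unadjusted, median -0.09). The T cell signalling inhibitor Cd5 read 4.94, 4.93 and 4.90 at day 75, against 3.98 and 3.81 at day 39 (difference 1.03, adjusted p = 0.064). Among 14 genes of MHC class I presentation 0 were called (3 unadjusted), and B2m, the light chain, differed by 0.53 (adjusted p = 0.0521, and 0.0161 with 0.72 after quantile normalization). MHC class II presentation genes, 13 measured, had 0 calls (2 unadjusted) and a median of 0.01. For the type 2 list 1 of 18 rose, Mrc1, while the cytokine gene Il13 differed by -0.10, Il4 by 0.05 and the epithelial gene Clca1 by 1.47 (adjusted p = 0.492), and the goblet and mucous list had 0 calls of 13 (1 unadjusted, median -0.16).

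The other CD40L-KO groups show where each gene's day 39 and day 75 levels stand. By transcript these groups mix the sexes: Xist read 6.85 to 7.35 in both groups of day 32, against 3.18 to 4.25 in those of days 14 and 35. Sex and group therefore cannot be told apart in these levels. Ctsk averaged 6.02 and 5.84 in unexposed mice of days 14 and 32, 6.71, 6.57 and 6.32 in exposed mice of days 32, 35 and 39, and 7.64 at day 75. Cxcl9, Wfdc21, Ifit1, Gclc and Bhlhe40 were, like Ctsk, above every one of the 15 other CD40L-KO arrays in each day 75 lung. This held for 127 of all 8252 genes and for 31 of the 189 called rises. The calls rest on the same day 75 and day 39 arrays, so a larger share among them is no separate result. Marco had another order: it averaged 4.60 and 5.00 in the unexposed groups, 4.75 at day 32, 6.33 at day 35, 4.74 at day 39 and 6.40 at day 75. Ncf1 averaged 6.10 and 5.23 in the unexposed groups, 5.61, 6.00 and 4.14 at days 32, 35 and 39, and 5.80 at day 75. Its day 39 lungs were below all 15 other CD40L-KO arrays, and those of Mki67, Cyp1a1, Ifit1, Hmgcs1 and Pdia6 were too. Such low day 39 levels were found for 161 of all 8252 genes and for 36 of the 189 called rises. Hnrnpl averaged 7.91 and 5.11 in the unexposed groups, 6.24, 7.94 and 5.16 at days 32, 35 and 39, and 7.51 at day 75, so that its level split the unexposed groups as well.

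Among the falls, Sftpc averaged 13.43 and 13.12 in the unexposed groups, 12.97, 13.66 and 13.13 at days 32, 35 and 39, and 12.45 at day 75. The highest intensity of an array was 5421 to 5742 at day 75 and 7890 to 14400 in the other CD40L-KO groups. Its part in the standing of the brightest genes given next was not tested. The day 75 lungs were below all 15 other CD40L-KO arrays for Sftpc, Ly6e, Tcn2, Acvrl1, Snrpb, Rnf167, Rpl41 and Rps28. This held for 111 of all 8252 genes and for 20 of the 84 called falls. For Emp2 and Lamp1 the day 39 lungs were instead above all 15 other arrays, as for 149 of all genes and 16 of the called falls. Emp2 averaged 9.89 and 10.58 in the unexposed groups, 10.60, 10.02 and 11.00 at days 32, 35 and 39 and 9.93 at day 75.

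**Figure D4:**
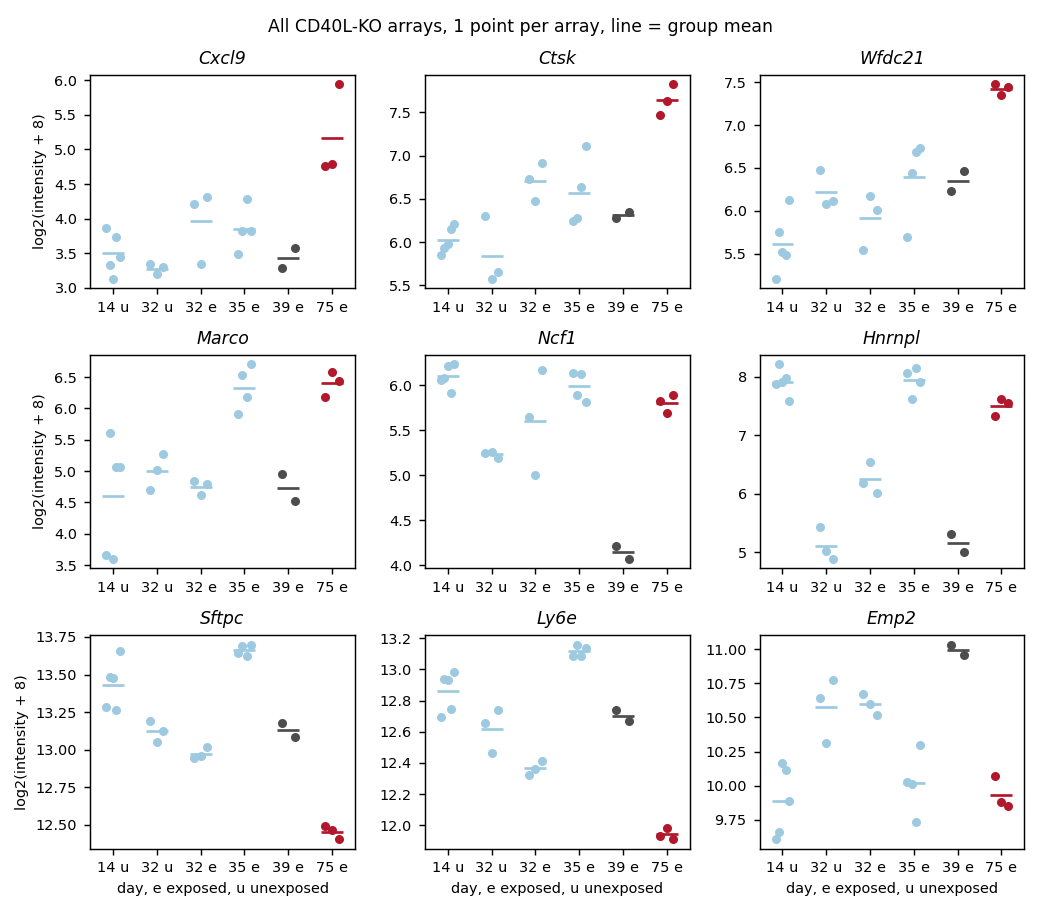
Log2(intensity + 8) of 9 genes on all 20 CD40L-KO arrays in order of day (u unexposed, e exposed), 1 point per array with a line at each group's mean, day 39 in grey and day 75 in red. Ctsk, Cxcl9 and Wfdc21 are highest at day 75, Ncf1 is lowest at day 39, and Sftpc and Ly6e are lowest at day 75.

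Set against the 4 exposed CD40L-KO lungs of day 35, the same 3 day 75 lungs gave 2137 called genes of 8252 (25.9%), 1176 higher (14.3%) and 961 lower (11.6%), in a fit of the 20 CD40L-KO arrays. The design text places the day 35 mice in experiment 4 and names none for day 75, so experiment and day cannot be told apart. This comparison shares the day 75 arrays with the one above, so its values are given side by side only. Of the 189 genes called higher than day 39, 45 were called higher than day 35, 20 were called lower and 124 did not pass. Of the 84 called lower than day 39, 28 were called lower than day 35, 9 were called higher and 47 did not pass. Ctsk differed by 1.07 (adjusted p = 0.000859), Cxcl9 by 1.31 (0.00237), Saa3 by 1.24 (0.0246), Wfdc21 by 1.04 (0.00355) and Cyp1a1 by 1.01 (0.00793), against 1.32, 1.74, 2.36, 1.08 and 1.49 in the comparison with day 39. Ccl8 and Mmp12, which had not passed against day 39, differed by 2.27 (adjusted p = 0.000441) and 1.75 (0.00115). Marco differed by 0.07, Cybb by -0.07, Ncf1 by -0.19, Mrc1 by 0.25 and Hnrnpl by -0.43, and these did not pass.

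For the falls the day 35 comparison gave Sftpc -1.21 (adjusted p = 1.75e-07), Ly6e -1.17 (1.91e-07), Tcn2 -1.24 (6.78e-06), Rps28 -1.05 (1.58e-07) and Scgb1a1, the club cell secretory protein, -1.40 (1.02e-07). Emp2 differed by -0.08 and Eng by -0.14 and did not pass. The highest intensity was 12800 to 13600 on the day 35 arrays and 5421 to 5742 on those of day 75. After quantile normalization the sign of Sftpc turned in this comparison, as given in the closing section. The 5 genes named as the largest rises here were Gas5, a noncoding RNA that hosts small nucleolar RNAs (2.91), Ankrd33b (2.85), Agtrap, which binds the angiotensin receptor (2.53), Mir686 (2.46) and the annexin Anxa8 (2.40). The largest falls were Ifi204, an interferon-induced DNA sensor (-2.36), Alad, of haem synthesis (-2.04), Tyms-ps (-1.56), Ighv14-2 (-1.55) and Cyp4v3 (-1.46). None of these 10 was called between days 75 and 39, where Gas5 differed by 0.00. Gas5 averaged 6.32 in unexposed mice of day 14 and 6.24 at day 35. It averaged 9.00 and 8.61 in unexposed and exposed mice of day 32, and 9.15 at days 39 and 75. Ankrd33b, Agtrap, Mir686, Anxa8, Ifi204, Alad and Ighv14-2 split the groups in the same way, Tyms-ps and Cyp4v3 did not. The split followed neither exposure nor the order of days.

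In C57BL/6 mice exposed for 75 days against 32 days, several of these genes had changes of the other sign. The test was the difference between the CD40L-KO change (day 75 minus day 39) and the C57BL/6 change (day 75 minus day 32), in the fit of 19 arrays, and 483 of 8252 genes passed (5.85%), 318 with a more positive change in CD40L-KO (3.85%) and 165 with a more negative one (2.0%). The earlier days differ between the strains. Xist read 3.71 to 4.10 in C57BL/6 lungs of day 75, against 7.27 to 7.98 in those of day 32, so sex and day cannot be told apart in that strain. Without C57BL/6 day 32 replicate 2 the count was 909, without CD40L-KO day 39 replicate 1 or 2 it was 262 or 230, without day 75 replicate 2 or 3 it was 310 or 321, and with the Gapdh ratio in the model it was 11.

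Saa3 changed by 2.36 in CD40L-KO and by -4.77 in C57BL/6 mice, whose lungs read 5.12, 6.39 and 6.87 at day 75, against 11.27, 9.95 and 11.49 at day 32. The changes differed by 7.13 (SE 0.72, adjusted p = 9.13e-05). By day 75 the means were 7.29 in CD40L-KO and 6.13 in C57BL/6 lungs. Cxcl9 changed by 1.74 in CD40L-KO and by -3.96 in C57BL/6 mice, a difference of 5.69 (adjusted p = 4.72e-05), with day 75 means of 5.16 in CD40L-KO and 4.79 in C57BL/6 lungs. The high C57BL/6 level of day 32 was not reached in any CD40L-KO lung of these days for either gene.

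Among phagocyte and division genes, Cybb changed by 1.21 in CD40L-KO and by -1.24 in C57BL/6 mice (difference 2.45, adjusted p = 0.000394), and Ctsk by 1.32 in CD40L-KO and -1.07 in C57BL/6 mice (2.40, adjusted p = 0.000394). Marco changed by 1.67 in CD40L-KO and by -0.14 in C57BL/6 mice (1.81, adjusted p = 0.00277). Mki67 changed by 1.32 and Cdk1 by 1.03 in CD40L-KO mice, against -1.95 and -1.91 in C57BL/6 mice (differences 3.27 and 2.94). By list, the strain difference was called positive for 14 of 25 Th1 genes, 15 of 26 macrophage genes, 23 of 41 cell cycle genes and 3 of 6 oxidase genes, and called negative for 0 in each. Over all genes 3.85% were called positive and 2.0% negative.

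Of 15 measured immunoglobulin and plasma cell genes the strain difference was called positive for 1 (Pigr, the epithelial transporter of IgA, 1.96), negative for 2 (Ighg3, -2.43, and Jchain) and not called for 12, with a median of -0.26. Igkv6-14, a light chain segment outside that list that was among the 5 most negative strain differences above the median level, changed by 0.17 in CD40L-KO and by 3.82 in C57BL/6 mice, whose lungs read 9.59 to 9.98 at day 75, against 5.16 to 6.86 at day 32 (difference -3.65, adjusted p = 0.00162). Jchain, which joins IgA and IgM units, changed by 0.55 in CD40L-KO and 3.01 in C57BL/6 mice (-2.46, adjusted p = 0.0467). In CD40L-KO lungs Jchain read 5.55 to 5.85 at day 75 and 5.05 to 5.19 at day 39. For the bright falls the strain difference was mixed. It did not pass for Sftpc (-0.38, adjusted p = 0.203), Ly6e (-0.31, adjusted p = 0.362) or Rpl41 (-0.34, adjusted p = 0.359). It passed for Rps28 (-0.56, adjusted p = 0.0318) and Eng (-1.20, adjusted p = 0.0132). At day 75 Sftpc averaged 12.45 in CD40L-KO and 12.52 in C57BL/6 lungs.

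**Figure D5:**
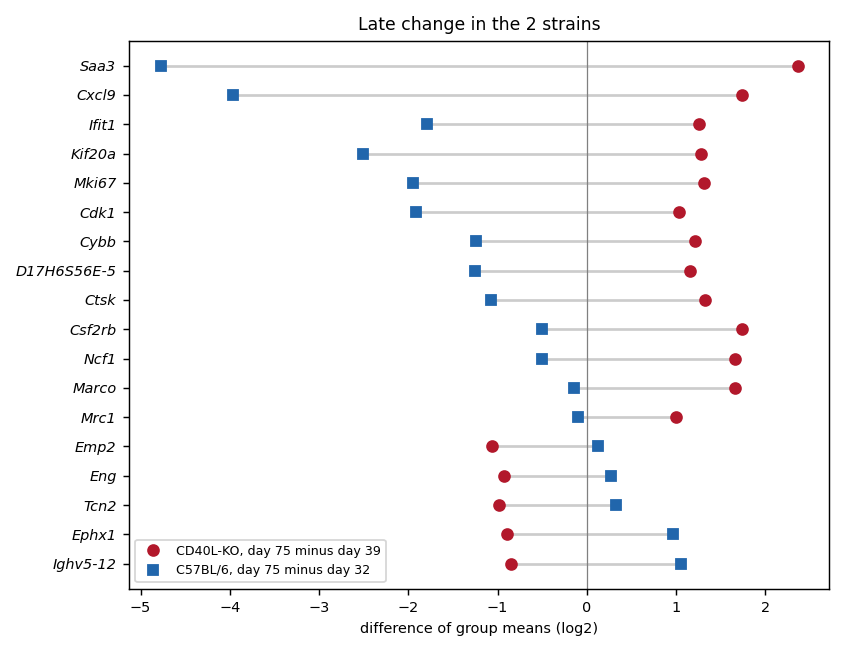
Change of 18 genes in exposed CD40L-KO lung (red circles, day 75 minus day 39) and in exposed C57BL/6 lung (blue squares, day 75 minus day 32), as differences of group means on the log2 scale, joined by a line for each gene. Only genes whose strain difference passed were drawn, so that all 18 passed follows from the choice and is no result. Among them Saa3 and Cxcl9 lie furthest apart, at 2.36 against -4.77 and 1.74 against -3.96.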

How the data were processed

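Per the labels' protocols, RNA from whole lungs was biotin-labelled for single-colour Affymetrix arrays. The deposited values are 1 linear intensity per probe set for 12487 probe sets and 95 arrays. How the authors summarised probes was not stated in the sources used here. The mean of each array, with 2% trimmed at each end, was 100.05 to 100.07, so the intensities had been scaled. They were used as log2(intensity + 8). In the platform annotation 10855 probe sets name 1 gene, 396 several and 1236 none. 1 probe set with a missing value was left out, and the brightest probe set stood for each of 8252 genes. Of those naming 1 gene, 10838 matched RefSeq by Entrez identifier. No 2 arrays held identical values. The number of arrays, not a read depth, limits precision.

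Groups came from the titles. Nothing says more of a replicate than that it is 1 array, so p-values measure the spread between arrays. Comparisons used lmFit and eBayes of limma 3.58.1 (R 4.3.3), with Benjamini-Hochberg adjustment over 8252 genes and a threshold of 0.05, on the 19 arrays of days 32, 39 and 75, or on the 20 CD40L-KO arrays for day 35. Python 3.11.15 with pandas 2.3.3, numpy 2.4.6 and, for plots, matplotlib 3.10.9 made the tables. The fits were tested on simulated data. A rule named Cd40lg, sex-linked genes, the 15 largest rises and falls among called genes above the median level with groups apart, at most 4 called members per list (otherwise the 2 of smallest p), and the 5 largest each way for the other comparisons. List members given as examples beside these were chosen after their values were seen. The arrays, the 45 lists and the tests were chosen with earlier results of these data known. The alternatives are named in the closing section.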

Additional observations from a re-analysis of the deposited data

Results flagged for a closer look

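The late change in CD40L-KO lung (day 75 minus day 39) differed from that in C57BL/6 lung (day 75 minus day 32) for 51 of the 121 genes taken by the naming rule. The test was that of the difference itself in limma, with adjusted p between 4.72e-05 and 0.0488. Over all genes 483 of 8252 passed (5.85%). The rule took some genes by this same test and others by their CD40L-KO change, which is part of it. The larger share among the named genes therefore follows from the choice and is no result. Positive values mean a more positive change in CD40L-KO lung, on the log2 scale. Among secreted and inflammatory genes the difference was positive for Saa3 (7.13), Clca1 (6.70), Cxcl9 (5.69), Mmp12 (4.25), Ccl8 (4.14), Cxcl1 (4.14), Lcn2 (3.51), Ccl9 (3.58), Ifit1 (3.04) and Wfdc21 (1.13). It was positive for the lymphocyte genes Cd5 (2.50) and Cd83 (1.76), and for the division genes Kif20a (3.79), Mki67 (3.27) and Cdk1 (2.94). Phagocyte, lysosome and antioxidant genes with a positive difference were Cybb (2.45), Ncf1 (2.16), Csf2rb (2.24), Marco (1.81), Mrc1 (1.10), Ctsk (2.40), Ctsc (1.64), Ctss (1.48), Cd63 (0.91) and Gclc (1.51). Positive differences were also found for D17H6S56E-5 (2.41), Bhlhe40 (1.83), Hnrnpl (1.72), Pdia6 (1.71), Col5a2 (1.39), Myh9 (1.16), Snrpd3 (0.96), Acsl4 (0.94) and Usp33 (0.88). Immunoglobulin genes had negative differences, with Igkv6-14 (-3.65), Igkv8-19 (-2.52), a further kappa variable segment (-3.13), Ighv5-12 (-1.91) and Jchain (-2.46). Epithelial, endothelial and metabolic genes with a negative difference were Pon1 (-3.44), Ephx1 (-1.86), Tcn2 (-1.31), Eng (-1.20), Emp2 (-1.19), Acvrl1 (-0.89) and Krt36 (-1.22). The last negative differences were those of Rnf167 (-1.06), Ing1 (-0.77) and Rps28 (-0.56). Clca1 spread widely within C57BL/6 lungs of day 75, at 4.87, 9.03 and 5.16. The sex-linked genes Xist (3.57) and Eif2s3y (-1.79) also differed. Xist changed by -0.19 in CD40L-KO and by -3.76 in C57BL/6 lung, and sex and day cannot be told apart in the C57BL/6 groups for any of these genes. The groups of days 39 and 75 hold 2 and 3 arrays, too few to look for single arrays that stand apart.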

How the results depend on the processing

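For day 75 against day 39 the count of 273 was 432 without dim genes, 523 in 1 fit of the 20 CD40L-KO arrays, 1 with the Gapdh ratio, 0 from the 5 arrays alone, and 17 to 165 when 1 array was left out. Offsets of 2 and 32, quantile normalization, the mean of all probe sets, centring on the median, the tissue averages and 1 fit of all 95 arrays gave counts between 186 and 378. Centring on each array's median gave 110 higher and 83 lower, against 189 and 84 as reported. Replicate numbers were shared, and the deviations of the same-numbered arrays correlated at -0.0312 and -0.0258. With 2 arrays at day 39, whose deviations mirror each other, these values cannot decide whether the numbers pair the arrays. With the replicate block the count was 118. For the strain difference the count of 483 was 11 with the Gapdh ratio and 230 to 909 when 1 array was left out. For day 35 every alternative stayed within 1.5 times of 2137. The 3' to 5' ratio differed by -0.23 with Gapdh and -0.21 with beta-actin probe sets. Against day 35 the sign turned after quantile normalization for Lamp1 (0.18), Sftpc (0.077), Hba-a1 (0.12), Jund (0.0064) and Rpl41 (0.0068), and with the mean of all probe sets for Snrpb (0.043), Ctsc (1.98) and Tfrc (-0.10). The cause was not tested. Of 54 named called genes 40 passed after quantile normalization, 33 with the block and 45 of the 45 left without dim genes.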

Other observations

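Called genes of RNA processing, which no list held and which were chosen here after their values were seen, went in both directions. Tra2b, a splicing activator, read 8.64, 8.46 and 8.23 at day 75, against 7.60 and 7.45 at day 39 (difference 0.92, adjusted p = 0.0163). Srsf11, of the serine- and arginine-rich splicing factors, differed by 0.92 (adjusted p = 0.0214), the RNA helicase gene Ddx5 by 0.83 (adjusted p = 0.00989), Hnrnph2 by 0.97 (adjusted p = 0.0132) and Tardbp, which encodes TDP-43, by 0.80 (adjusted p = 0.0135). The splicing kinase gene Clk1 differed by 0.67 (adjusted p = 0.0306). Sfpq differed by 0.83, but its other probe sets lay between -0.36 and 0.64, and Srsf3 differed by 0.83 with -0.03 by its other probe set. Lower at day 75 were Ybx1, an RNA- and DNA-binding protein, by -0.55 (adjusted p = 0.0141, and 0.304 after quantile normalization), Smn1, which assembles splicing particles, by -0.47 (adjusted p = 0.0386), the helicase genes Ddx49 by -0.71 and Ddx56 by -0.50, Exosc5, of the RNA exosome, by -0.60, and Snrpb. As no list of such genes was tested, no theme is drawn from them.

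Further genes outside the naming rule stood apart between the days. Ly75, the dendritic cell and epithelial receptor DEC-205, read 6.51, 6.49 and 6.54 at day 75 and 5.16 and 5.28 at day 39 (difference 1.29, adjusted p = 0.00605). Sfrp1, a secreted inhibitor of Wnt signalling, differed by 1.38 (adjusted p = 0.00605), Mrc2, a collagen-internalising relative of the mannose receptor, by 1.41 (adjusted p = 0.0357) and Nfkbiz, a nuclear regulator of NF-kB targets, by 1.01 (adjusted p = 0.00605). Hif3a, of the hypoxia-inducible factors, read 4.43, 3.96 and 4.38 at day 75, against 5.95 and 5.82 at day 39 (difference -1.62, adjusted p = 0.00605).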
